A study of Mus musculus with 8 samples.

Results

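The mammalian fibroblast growth factor (FGF) system was followed through 9 genes, the ligands Fgf4, Fgf5, Fgf8, Fgf15 and Fgf17 and the receptors Fgfr1, Fgfr2, Fgfr3 and Fgfr4, chosen by gene name from 38991 genes measured. All 9 were listed in every culture. RNA-seq was performed on RGd2 (Rex1GFPd2) mouse embryonic stem cells (ESCs) of strain 129, a single line that carries a destabilised GFP reporter for Rex1. The cells had been kept for 6 passages in 2i, which is the GSK3 inhibitor CHIR99021 (CH) together with the MEK inhibitor PD0325901 (PD), and then spent 5 passages, to passage 11, on gelatin in N2B27 medium with 1 of 4 combinations. The 2i+LIF cultures received CH at 3 μM, PD at 1 μM and the cytokine LIF. The 2i cultures received CH and PD without LIF, the LIF+PD cultures lacked CH, and the CH+LIF cultures lacked PD. Each condition had 2 cultures, 8 in all, so MEK was inhibited in 6 of 8 cultures and free of the inhibitor only in CH+LIF. The labels do not say that the 2 cultures of a condition had separate origins, so p-values measure the spread between these cultures only.

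FGF ligands are secreted proteins that bind tyrosine kinase receptors together with heparan sulfate. The receptors act through the adaptor FRS2, RAS, RAF and MEK to activate ERK, and ERK induces its own inhibitors of the Sprouty, SPRED and DUSP families. In mouse ESCs FGF4 is the main autocrine ligand and FGFR1 the main receptor, and PD blocks the cascade below both, at MEK. In the early embryo Fgf4 marks the epiblast, Fgfr2 is known from primitive endoderm and trophectoderm, Fgf5 from the post-implantation epiblast, and Fgf8 and Fgf17 from the primitive streak.

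Expression is given as FPKM, which corrects fragment numbers for transcript length and library size, so that levels of genes of different length can be set side by side. In all 4 conditions the order began with Fgf4 and then Fgfr1, and their cultures did not overlap with each other or with the next gene. The third place was held by Fgf17 in 2i+LIF and CH+LIF and by Fgfr2 in 2i and LIF+PD, again without overlap with the fourth. Below an FPKM of about 1 the order was less clear. Fgf15 overlapped with Fgfr4 in 2i+LIF, Fgf5 with Fgfr4 and Fgfr4 with Fgfr3 in 2i, and Fgf8 with Fgfr3 and Fgfr3 with Fgfr4 in LIF+PD. In CH+LIF, Fgfr2 overlapped with Fgfr4 and Fgfr4 with Fgf15, as did Fgfr3 with Fgf8 and Fgf8 with Fgf5. A level of 1 FPKM in 2 or more cultures was reached by 6 of the 9 genes, which entered the tests, whereas Fgf5, Fgfr3 and Fgfr4 did not. Fgf15 passed this filter through 2i and LIF+PD cultures only, and Fgf8 through 3 cultures of the same conditions. Counts over the tested genes are therefore descriptions.

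**Figure D1:**
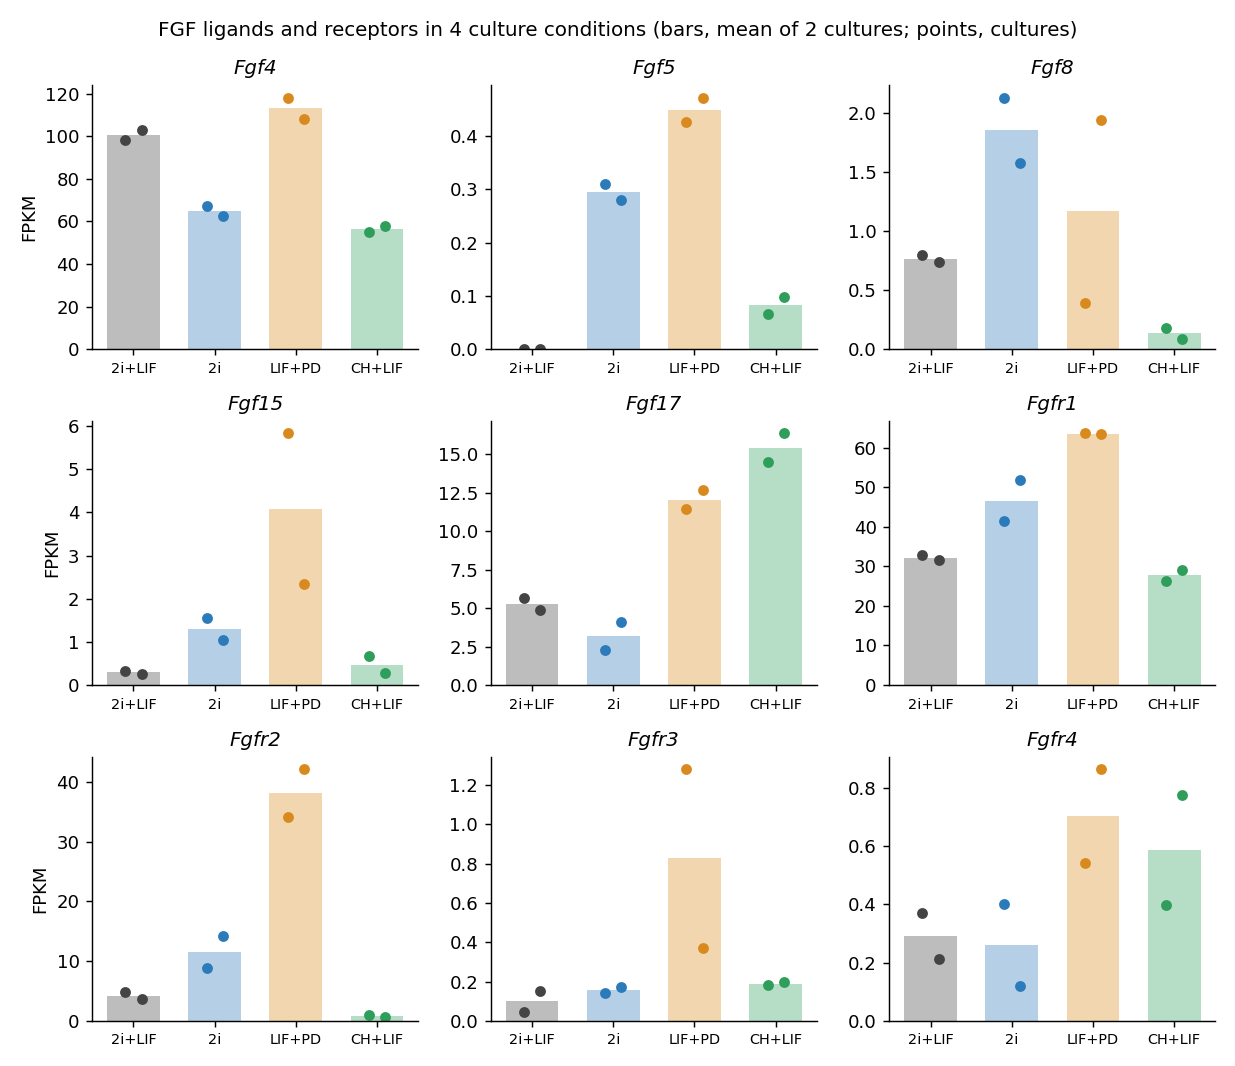
FPKM (vertical axis, linear from 0) of the 9 genes in the 4 conditions. Bars show the mean of 2 cultures and points the cultures. Fgf4 was lowest in CH+LIF and 2i, Fgf17 highest in CH+LIF, and Fgfr1 and Fgfr2 highest in LIF+PD.

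Fgf4 (chromosome 7, 144861386 to 144865243, plus strand, mm10) encodes the ligand on which ERK activation in ESCs largely depends. Its FPKM was 98.3 and 103 in the 2i+LIF cultures, 67.4 and 62.4 in 2i, 118 and 108 in LIF+PD, and 55.0 and 58.0 in CH+LIF. No 2 conditions overlapped in FPKM, and the lowest levels were those of the condition without the MEK inhibitor. After rescaling of every culture to the same sum (TPM), the CH+LIF cultures were no longer both below all others. Relative to 2i+LIF, Fgf4 was 1.78-fold lower in CH+LIF, a log2 fold change of -0.82 ± 0.08 (SE) on the log2(FPKM + 1) scale used for all tests (limma, adjusted p = 0.00129). Fgf4 was also lower in 2i than in 2i+LIF, by 1.55-fold (log2 fold change -0.63 ± 0.08, limma adjusted p = 0.0033). The difference between LIF+PD and 2i+LIF was 0.17 on the log2 scale, with a 95% interval of -0.03 to 0.36 (limma adjusted p = 0.195). CH+LIF and 2i, the pair with the lowest levels, differed by -0.20, with an interval of -0.40 to 0.00 (limma adjusted p = 0.134). Fgf4 was higher in LIF+PD than in CH+LIF by 2.00-fold and than in 2i by 1.74-fold (limma adjusted p = 0.000323 and 0.000828).

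The promoter of Fgf4 is shown because Fgf4 was the most abundant of the 9 transcripts in every culture. Those of Fgf5 and Fgfr2 belong to the ligand with the lowest mean level of the 5 chosen and to the receptor with the widest range. The windows run from 250 bases before to 50 bases after a RefSeq start (GRCm38.p6), and capitals mark CpG dinucleotides.
Fgf4, chr7:144861136-144861435, plus strand: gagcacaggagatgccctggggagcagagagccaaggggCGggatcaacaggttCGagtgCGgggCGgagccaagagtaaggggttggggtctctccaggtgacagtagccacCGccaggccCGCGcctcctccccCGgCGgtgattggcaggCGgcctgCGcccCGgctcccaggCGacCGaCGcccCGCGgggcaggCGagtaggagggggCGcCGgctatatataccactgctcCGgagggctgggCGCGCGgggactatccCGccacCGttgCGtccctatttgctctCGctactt
Fgf5, chr5:98253934-98254233, plus strand: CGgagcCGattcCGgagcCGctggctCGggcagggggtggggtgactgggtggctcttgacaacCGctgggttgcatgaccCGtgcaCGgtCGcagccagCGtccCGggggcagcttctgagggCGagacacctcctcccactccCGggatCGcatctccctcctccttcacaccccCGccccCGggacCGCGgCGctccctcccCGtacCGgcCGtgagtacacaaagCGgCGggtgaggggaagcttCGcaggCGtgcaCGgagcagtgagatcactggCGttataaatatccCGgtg
Fgfr2, chr7:130266759-130267058, minus strand: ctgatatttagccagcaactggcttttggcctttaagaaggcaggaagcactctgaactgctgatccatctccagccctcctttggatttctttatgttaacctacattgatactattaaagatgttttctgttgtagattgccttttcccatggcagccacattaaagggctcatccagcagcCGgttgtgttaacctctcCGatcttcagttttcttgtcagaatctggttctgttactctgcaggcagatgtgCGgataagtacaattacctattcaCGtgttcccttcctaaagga
The Fgf4 window held 28 CpG dinucleotides and 69.7% G and C, and the Fgf5 window held 29 and 68.3%. The Fgfr2 window held 4 and 43.7%, compared with medians of 7 and 52.7% over 32851 promoter windows of the same length. A CpG-rich window was found both at the most abundant and at the least abundant of the 5 ligands chosen. RefSeq windows were found for 5 of the 9 genes, Fgf4, Fgf5, Fgfr2, Fgfr3 and Fgfr4, with 2 windows for Fgfr3. In all, 6 motifs were searched on both strands, the TCF/LEF motifs CTTTGAT and CTTTGAA, which share their first bases, the STAT motif TTCNNNGAA, the ETS motif CCGGAAG, the octamer ATGCAAAT and the AP-1 motif TGACTCA. None of them occurred in the 6 windows of these genes. Of all windows, 3.73%, 5.14%, 8.30%, 8.86%, 1.74% and 5.20% held them, in the same order.

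Fgf4 lies between Fgf3 and Fgf15 in a stretch of 62.9 kb. Fgf3, its neighbour 16950 bases to the left and an early embryonic ligand, had an FPKM of 5.45 and 5.16 in 2i+LIF, 0.456 and 0.466 in 2i, 1.87 and 2.26 in LIF+PD, and 0.973 and 0.648 in CH+LIF. Both 2i+LIF cultures were above all others. Fgf3 fell relative to 2i+LIF in all 3 conditions, with log2 fold changes of -2.11, -1.04 and -1.81 in 2i, LIF+PD and CH+LIF (limma adjusted p = 0.000343, 0.00445 and 0.000866). The lowest level of Fgf3 was found in 2i, whereas that of Fgf4 was found in CH+LIF. However, CH+LIF and 2i were not called apart for either gene (limma adjusted p = 0.214 for Fgf3 and 0.134 for Fgf4).

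Fgf15 (chromosome 7, 144896532 to 144900953, plus strand), the mouse counterpart of FGF19 and an endocrine regulator of bile acid synthesis in the adult, was at 0.334 and 0.254 in 2i+LIF, 1.56 and 1.03 in 2i, 5.83 and 2.34 in LIF+PD, and 0.668 and 0.282 in CH+LIF. Both LIF+PD cultures were above all others, although they differed from each other by more than the 6 other cultures did. Fgf15 rose in LIF+PD relative to 2i+LIF, with a log2 fold change of 1.89 ± 0.34 and a 95% interval of 1.09 to 2.68 (limma adjusted p = 0.00792), and the ratio of the mean FPKM was 13.9. The difference between 2i and 2i+LIF was 0.82, with an interval of 0.02 to 1.62 (limma adjusted p = 0.140). CH+LIF and 2i+LIF overlapped (log2 fold change 0.18, limma adjusted p = 0.736). The fall from LIF+PD to CH+LIF was -1.71 (limma adjusted p = 0.00936), and without replicate 2 of CH+LIF it no longer passed (adjusted p = 0.0548). The difference between LIF+PD and 2i was 1.07 (limma adjusted p = 0.0589), which passed after rescaling to TPM (adjusted p = 0.0474), with a replicate block (0.0264) and without replicate 2 of LIF+PD (0.0145). Its exons share 761 bases in GENCODE M21 with Gm26793 on the other strand, which was listed between 0 and 0.0352. To the right, 14147 bases away, Oraov1 ranged from 4.92 to 10.04 and was not called in any comparison with 2i+LIF (limma adjusted p = 0.0743, 0.518 and 0.808 in 2i, LIF+PD and CH+LIF).

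Fgf17 (chromosome 14, 70636205 to 70642268, minus strand), a ligand closely related to Fgf8, was the second most abundant of the 5 ligands in every condition. Its FPKM was 5.66 and 4.89 in 2i+LIF, 2.29 and 4.11 in 2i, 11.4 and 12.7 in LIF+PD, and 14.5 and 16.4 in CH+LIF. The 4 conditions did not overlap, with 2i lowest and CH+LIF highest. Relative to 2i+LIF, Fgf17 rose 2.92-fold in CH+LIF (log2 fold change 1.39 ± 0.21, limma adjusted p = 0.00452). Fgf17 also rose 2.28-fold in LIF+PD (1.06 ± 0.21, limma adjusted p = 0.0115), a call that was lost without replicate 2 of 2i+LIF (adjusted p = 0.0661) and without replicate 2 of LIF+PD (0.0643). In 2i the difference from 2i+LIF was -0.61, with an interval of -1.10 to -0.12 (limma adjusted p = 0.0853), and it passed without replicate 2 of 2i (-0.93, adjusted p = 0.0183). The contrast with 2i was larger, 4.82-fold in CH+LIF and 3.77-fold in LIF+PD (limma adjusted p = 0.00109 and 0.00171). Between CH+LIF and LIF+PD the difference was 0.33, with an interval of -0.16 to 0.82 (limma adjusted p = 0.272). Fgf4 and Fgf17 thus moved in opposite directions from 2i+LIF to CH+LIF. Dmtn, which lies 157 bases from Fgf17, ranged from 30.2 to 42.5 and was not called in the comparisons with 2i+LIF (limma adjusted p = 0.997, 0.877 and 0.175 in 2i, LIF+PD and CH+LIF). Npm2, on the other side, had an FPKM of at most 0.340.

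Fgf8 (chromosome 19, 45736798 to 45742915, minus strand), a ligand of gastrulation and brain patterning, was at 0.797 and 0.735 in 2i+LIF, 2.13 and 1.57 in 2i, 0.393 and 1.94 in LIF+PD, and 0.183 and 0.0883 in CH+LIF. Both CH+LIF cultures were below all others, and the 2 LIF+PD cultures lay on either side of 2i+LIF. Of the 6 comparisons, that of CH+LIF with 2i passed (log2 fold change -1.32 ± 0.33, limma adjusted p = 0.0291). Fgf8 passed the filter through 2i and replicate 2 of LIF+PD only, so this call is a description. With a mean FPKM of 0.979, Fgf8 was left out by a filter of mean FPKM at least 1. This call was lost without a filter (adjusted p = 0.0621) and without either culture of 2i+LIF, 2i or CH+LIF, with adjusted p up to 0.121. The difference of CH+LIF from 2i+LIF was -0.64, with an interval of -1.42 to 0.15 (limma adjusted p = 0.204, and 0.0419 with these 2 groups alone). The difference from LIF+PD was -0.83 (limma adjusted p = 0.101, and 0.0115 without replicate 1 of LIF+PD). LIF+PD and 2i overlapped (-0.49, limma adjusted p = 0.332), and without replicate 2 of LIF+PD the difference was -1.03 (adjusted p = 0.0337). The neighbours of Fgf8, Fbxw4 at 2.40 to 7.91 and Npm3 at 86.7 to 110, were not called in any comparison with 2i+LIF (limma adjusted p between 0.0796 and 0.657).

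Fgf5 (chromosome 5, 98254184 to 98277030, plus strand) was listed at 0 in both 2i+LIF cultures. It was at 0.311 and 0.281 in 2i, 0.426 and 0.473 in LIF+PD, and 0.0666 and 0.0985 in CH+LIF. The 4 conditions did not overlap, yet no culture reached an FPKM of 1, and Fgf5 was not tested in the main analysis. When 21125 genes were fitted without a filter, Fgf5 was higher in 2i and in LIF+PD than in 2i+LIF (limma adjusted p = 0.00961 and 0.00249) and lower in CH+LIF than in 2i and in LIF+PD (0.0242 and 0.0038). With the 16471 genes of a mean FPKM of 0.1 or more, the comparisons of LIF+PD with 2i+LIF and CH+LIF passed (limma adjusted p = 0.0163 and 0.0312), whereas those of 2i with 2i+LIF and CH+LIF did not (0.0635 and 0.144). No fold change is given against 2i+LIF, where Fgf5 was listed at 0. Its neighbours Prdm8 and 1700007G11Rik had an FPKM of at most 0.101 and 0.201.

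Among the receptors, Fgfr1 (chromosome 8, 25513654 to 25575714, plus strand) was the most abundant in every culture. Its FPKM was 32.9 and 31.6 in 2i+LIF, 41.5 and 51.8 in 2i, 63.7 and 63.4 in LIF+PD, and 26.3 and 29.2 in CH+LIF. The conditions did not overlap in FPKM and ran from CH+LIF through 2i+LIF and 2i to LIF+PD. After rescaling to TPM, the CH+LIF cultures were no longer both below all others. Fgfr1 rose 1.97-fold in LIF+PD relative to 2i+LIF (log2 fold change 0.96 ± 0.12, limma adjusted p = 0.00163). It was 2.29-fold lower in CH+LIF than in LIF+PD and 1.68-fold lower than in 2i (limma adjusted p = 0.000586 and 0.00589). Relative to 2i+LIF, the difference in CH+LIF was -0.21, with an interval of -0.48 to 0.06 (limma adjusted p = 0.229). The rise in 2i relative to 2i+LIF was 0.51 ± 0.12 (limma adjusted p = 0.0242). It no longer passed with those 2 groups alone (adjusted p = 0.0794) or without replicate 1 of 2i+LIF (0.0866), replicate 2 of 2i+LIF (0.115) or replicate 2 of 2i (0.0799). The step from 2i to LIF+PD was 0.45 (limma adjusted p = 0.0301). This call was lost without a filter (0.0510), after rescaling to TPM (0.0535), with the 2 groups alone (0.0815) and without either culture of 2i+LIF or LIF+PD or replicate 1 of 2i, with adjusted p up to 0.117. Gm16159 on the other strand shares 164 exon bases with Fgfr1 and had an FPKM of at most 1.13.

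Fgfr2 (chromosome 7, 130162451 to 133123350, minus strand) had the widest range of the 9 genes on the log2 scale. Its FPKM was 4.82 and 3.64 in 2i+LIF, 8.90 and 14.3 in 2i, 34.2 and 42.1 in LIF+PD, and 0.903 and 0.684 in CH+LIF. The conditions were separate and had the same order as for Fgfr1. Relative to 2i+LIF, Fgfr2 rose 9.03-fold in LIF+PD (log2 fold change 2.91 ± 0.23, limma adjusted p = 0.000343) and fell 5.33-fold in CH+LIF (-1.54 ± 0.23, limma adjusted p = 0.00454). It rose 2.74-fold in 2i (1.24 ± 0.23, limma adjusted p = 0.0114), a call lost with these 2 groups alone (adjusted p = 0.0525) and without replicate 2 of 2i+LIF (0.0727). Fgfr2 was 14.6-fold lower in CH+LIF than in 2i and 3.29-fold higher in LIF+PD than in 2i (limma adjusted p = 0.000437 and 0.00268). The largest contrast was that between the 2 conditions with a single inhibitor, with a mean FPKM 48.1-fold higher in LIF+PD than in CH+LIF (log2 fold change -4.44 for CH+LIF, interval -4.99 to -3.90, limma adjusted p = 5.0e-05). The levels in CH+LIF were below the pseudocount of 1, and this value ranged from -5.42 to -2.89 under other pseudocounts, scalings and left-out cultures.

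The annotated span of Fgfr2, 2961 kb, comes from a long isoform and overlaps 41 other listed genes. In GENCODE M21 its exons share 314 of 10328 bases with 1 of them, Ctbp2, on the same strand. Ctbp2 was at 117 and 108 in 2i+LIF, 134 and 137 in 2i, 168 and 139 in LIF+PD, and 170 and 177 in CH+LIF. Ctbp2 was highest in CH+LIF, where Fgfr2 was lowest, but from 2i+LIF through 2i to LIF+PD both genes rose. The part of shared reads in the Fgfr2 values was not tested.

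Fgfr3 (chromosome 5, 33721724 to 33737068, plus strand), known from cartilage, was at 0.0466 and 0.154 in 2i+LIF, 0.140 and 0.173 in 2i, 1.28 and 0.373 in LIF+PD, and 0.180 and 0.198 in CH+LIF. Both LIF+PD cultures were above the others, but only 1 culture reached an FPKM of 1. In GENCODE M21 the exons of Fgfr3 share 998 of 7158 bases with G630022F23Rik on the other strand. No FPKM was found under that name, and the part of shared reads was not tested. Fgfr4 (chromosome 13, 55152640 to 55168759, plus strand), the receptor for Fgf15 in liver, was at 0.371 and 0.211 in 2i+LIF, 0.400 and 0.118 in 2i, 0.541 and 0.863 in LIF+PD, and 0.397 and 0.776 in CH+LIF. The 2 cultures of a condition differed widely, and the highest values came from both LIF+PD and CH+LIF. Without a filter, neither gene passed in any of the 6 comparisons, and the lowest adjusted p was 0.106 for Fgfr3 and 0.178 for Fgfr4 (limma).

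**Figure D2:**
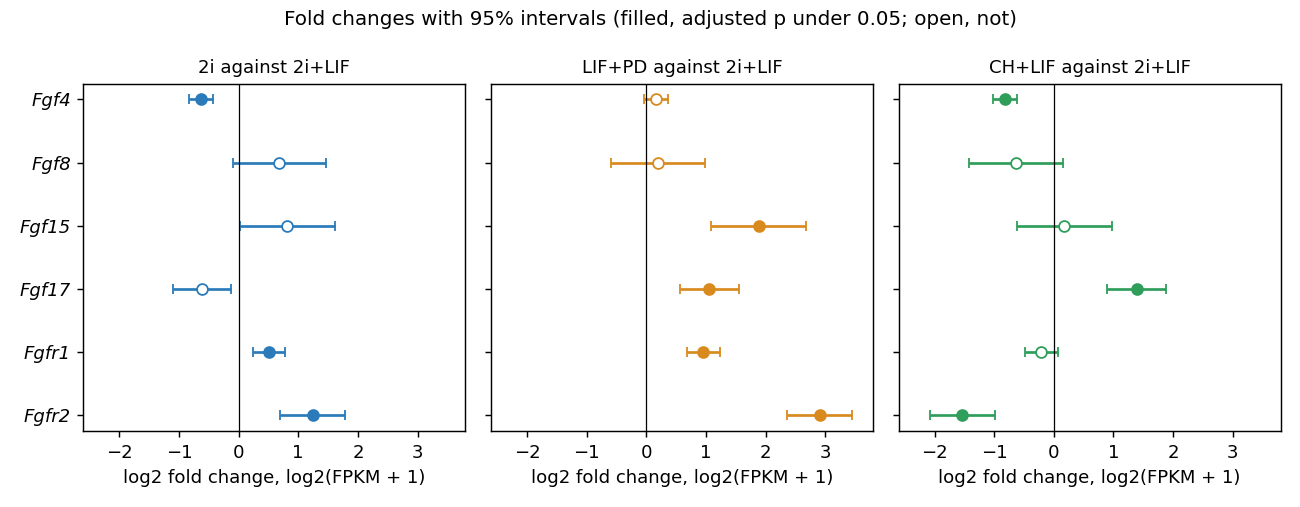
Log2 fold change of log2(FPKM + 1) against 2i+LIF (horizontal axis) for the 6 tested genes in 2i, LIF+PD and CH+LIF, with 95% intervals. Filled points passed an adjusted p of 0.05. Fgfr2 moved up in LIF+PD and down in CH+LIF, Fgf4 moved down in 2i and CH+LIF, and Fgf17 moved up in LIF+PD and CH+LIF.

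Read by condition, 3 of the 6 tested genes differed in the absence of LIF (2i against 2i+LIF), with Fgfr1 and Fgfr2 higher and Fgf4 lower. The cells had come from 2i, so LIF was added to the 2i+LIF cultures and not withdrawn from the 2i cultures. Over all 12927 tested genes 18.6% passed, 9.77% higher and 8.86% lower. Withdrawal of CH (LIF+PD against 2i+LIF) raised 4 of 6, namely Fgf15, Fgf17, Fgfr1 and Fgfr2, and no tested member was called lower. Over all genes 25.2% passed, 14.8% higher and 10.4% lower. Withdrawal of PD (CH+LIF against 2i+LIF) changed 3 of 6, with Fgf17 higher and Fgf4 and Fgfr2 lower, where 25.4% of all genes passed, 12.2% higher and 13.3% lower. These 3 comparisons share the 2i+LIF cultures. Fgfr2 was the only tested member called in all 3 of them, in both directions. Of the 6 tested genes, 4 were called between CH+LIF and 2i (23.9% of all genes), 4 between CH+LIF and LIF+PD (30.4%) and 4 between LIF+PD and 2i (25.1%). The count between CH+LIF and 2i includes Fgf8, whose call is a description because it passed the filter through 2i and LIF+PD only. Fgfr2 was called in all 6 comparisons and Fgfr1 in 5.

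Both CH+LIF cultures lay outside the range of the 6 other cultures for 5 of the 9 genes, Fgf4, Fgf8, Fgfr1 and Fgfr2 below it and Fgf17 above it. All 5 were among the tested genes, of which 26.7% overall did so. After rescaling of every culture to the same sum (TPM), 3 remained, Fgf8, Fgf17 and Fgfr2. Both LIF+PD cultures lay outside for 6 of the 9, Fgf4, Fgf5, Fgf15, Fgfr1, Fgfr2 and Fgfr3, all above the range. Of the 6 tested members 4 did so, compared with 27.2% of all tested genes in either direction. Both 2i cultures lay outside for Fgf17 alone, below the range (19.6% of the tested genes).

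The make-up of the receptor transcripts differed between conditions. Fgfr1 held 86.3% and 88.7% of the summed FPKM of the 4 receptors in 2i+LIF, 81.5% and 78.0% in 2i, 63.9% and 59.4% in LIF+PD, and 94.7% and 94.6% in CH+LIF. The share of Fgfr2 was 12.6% and 10.2% in 2i+LIF, 17.5% and 21.5% in 2i, 34.3% and 39.5% in LIF+PD, and 3.25% and 2.22% in CH+LIF. The cultures of different conditions did not overlap in either share. The ratio of Fgfr1 to Fgfr2 was lowest in LIF+PD, at 1.86 and 1.504, and highest in CH+LIF, at 29.2 and 42.6. The summed level of the receptors was 99.7 and 107 in LIF+PD compared with 27.8 and 30.8 in CH+LIF. As these are bulk samples, fewer expressing cells and less RNA per cell cannot be told apart.

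Among the 22 FGF ligands, Fgf4 held between 81.1% and 86.4% of the summed FPKM in the 6 cultures with PD and 71.3% and 70.9% in CH+LIF. The share of Fgf17 was 4.92% and 4.10% in 2i+LIF, 2.90% and 5.52% in 2i, 7.90% and 9.51% in LIF+PD, and 18.8% and 20.03% in CH+LIF. The 2i and 2i+LIF cultures overlapped in this share, and the CH+LIF cultures were above all others. The summed ligand level was 115 and 119 in 2i+LIF, 79.0 and 74.4 in 2i, 145 and 133 in LIF+PD, and 77.0 and 81.7 in CH+LIF, where 2i and CH+LIF overlapped.

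**Figure D3:**
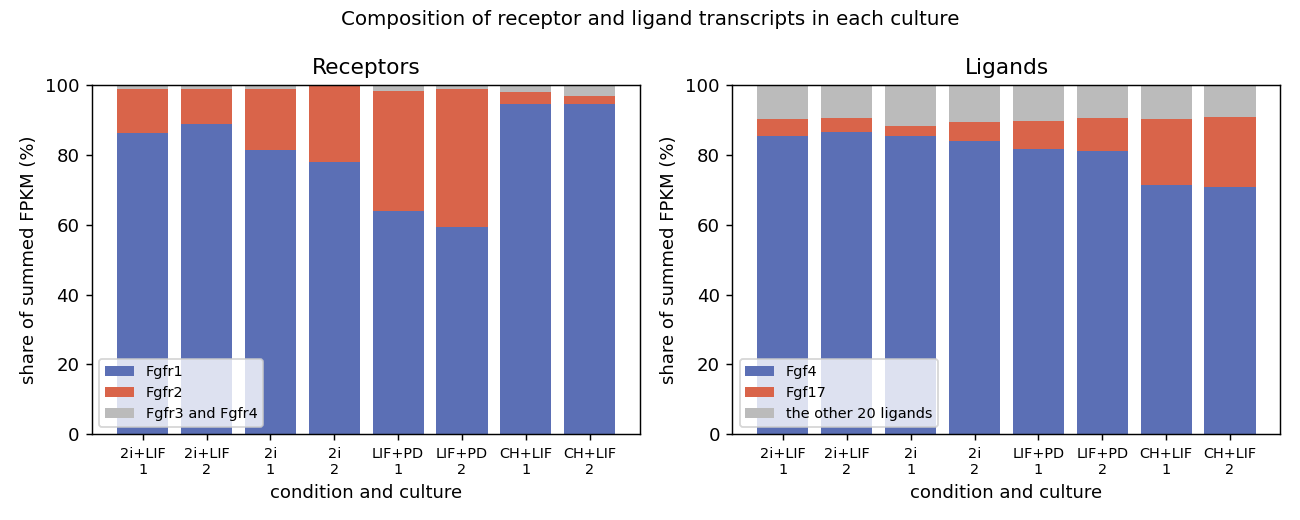
Share (%) of summed FPKM in each of the 8 cultures, for the 4 receptors (left) and the 22 ligands (right). Fgfr2 took its highest share in LIF+PD (34.3% and 39.5%) and its lowest in CH+LIF (3.25% and 2.22%), and Fgf17 its highest in CH+LIF (18.8% and 20.03%).

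Across the 8 cultures the tested members fell into differing patterns, described here by Pearson's r of log2(FPKM + 1) over cultures that share 4 conditions, without a test. Fgfr1 and Fgfr2 had an r of 0.98, and Fgf15 an r of 0.85 with Fgfr1 and 0.81 with Fgfr2. Fgf4 had an r of 0.65 with Fgfr2, 0.53 with Fgfr1 and -0.01 with Fgf17. Fgf17 and Fgf8 had the most negative r, -0.67. Among 9826 genes that reached 5 FPKM in a culture, those most like Fgf4 were Fxyd6 (r = 0.993), 9030617O03Rik (0.991) and Ralb (0.988). Fxyd6 ranged from a mean of 29.5 in CH+LIF to 121 in LIF+PD. Gnaq (0.991), Anxa11 (0.990) and Mbnl2 (0.989) were most like Fgfr1, and Anxa11 had means of 22.01 in CH+LIF and 46.6 in LIF+PD. Tm9sf4 (0.993), Btbd19 (0.988) and Gatsl3 (0.982) were most like Fgfr2, with smaller ranges than Fgfr2 itself. For Fgf17 they were Itga5 (0.985), Slc25a23 (0.981) and Gm20721 (0.979), and Itga5, a fibronectin receptor subunit, had means of 4.13 in 2i and 12.5 in CH+LIF. For Fgf15 they were Zeb1 (0.988), Zfand5 (0.977) and B230206L02Rik (0.972), and for Fgf8 they included Sec62 (0.963) and Vimp (0.952).

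Of 17 other FGF ligands, 5 reached an FPKM of 1 in 2 cultures, Fgf3, Fgf10, Fgf11, Fgf13 and Fgf18, the last 4 named after their values had been seen. The other 12 were below 1 in every culture, and 2 of them were listed at 0 throughout. Relative to 2i+LIF, Fgf3 and Fgf10 were lower in all 3 conditions and Fgf18 was higher in CH+LIF. Fgf10 fell from 2.32 and 2.10 in 2i+LIF to 0.0912 and 0.0235 in 2i, and Fgf18 rose from 0 and 0.104 to 1.18 and 1.91 in CH+LIF. Fgf18 passed the filter through the CH+LIF cultures alone, so its call there is a description.

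The counts of the lists that follow are to be read against the shares of all tested genes, 12.2% higher and 13.3% lower in CH+LIF, 14.8% and 10.4% in LIF+PD, and 9.77% and 8.86% in 2i, each relative to 2i+LIF. The medians over all genes were 0.01, 0.03 and 0.04 in the same order. Of 11 co-receptors and modulators, 6 were tested, and 2 were higher and 2 lower in CH+LIF than in 2i+LIF, with a median log2 fold change of -0.39. In 2i, 2 were higher and 1 lower, and in LIF+PD 2 were higher and 3 lower. Flrt2, named after its values had been seen, was among those lower in LIF+PD. It passed the filter through 2i+LIF (1.45 and 1.56) and replicate 2 of CH+LIF (1.02), so its call is a description. Fgfbp1, which releases FGFs from the matrix, was at 7.93 and 6.37 in 2i+LIF, 45.6 and 54.9 in 2i, 25.6 and 25.7 in LIF+PD, and 23.5 and 26.1 in CH+LIF, and rose in each of the 3 conditions. Ncam1, an adhesion molecule that can bind FGF receptors, rose in LIF+PD (36.8 and 31.7 compared with 14.1 and 12.9) and fell in CH+LIF (8.96 and 7.54) and 2i (9.85 and 8.24). Of 27 genes for heparan sulfate synthesis and carriers, 22 were tested. In CH+LIF 3 were higher and 7 lower (median log2 fold change -0.22), in LIF+PD 4 and 5 (0.14), and in 2i 1 and 3 (-0.03). In 2i the 4 called of 22 were near the 18.6% called over all genes. Hs3st1 (named after its values had been seen), counted as lower in each condition, passed the filter through the 2i+LIF cultures alone (1.61 and 1.31). Its calls are therefore descriptions. The 6-O-sulfotransferase gene Hs6st1 was at 72.8 and 69.9 in 2i+LIF and fell to 26.2 and 28.4 in CH+LIF (log2 fold change -1.36, limma adjusted p = 0.000233). The proteoglycan genes Hspg2 and Gpc1 also fell in CH+LIF, with log2 fold changes of -1.14 and -0.75, and Sdc1 rose by 0.69 (limma adjusted p = 0.0291, 0.0119 and 0.0164).

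Of 23 adaptor and RAS-ERK genes 22 were tested, of which 17 did not pass in CH+LIF, 20 in LIF+PD and 21 in 2i. The 5 called in CH+LIF were near the 25.4% of all genes. In CH+LIF, Gab1, Ptpn11 and Nras were higher, with log2 fold changes of 0.43, 0.81 and 0.35. Sos2, a RAS exchange factor, fell from 9.62 and 11.3 in 2i+LIF to 2.73 and 2.07 in CH+LIF (-1.75, limma adjusted p = 0.00221). The second gene called lower there was Ksr1 (named after its values had been seen), at 4.35 and 3.51 in 2i+LIF and 1.56 and 1.70 in CH+LIF.

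Of 13 tested feedback inhibitors of the pathway, 9 rose and 1 fell in CH+LIF relative to 2i+LIF, where 12.2% of all genes were higher and 13.3% lower, with a median log2 fold change of 0.62 compared with 0.01 over all genes. In 2i 2 rose and 2 fell (median 0.19, 0.04 over all genes), and in LIF+PD 1 rose and 3 fell (-0.15, 0.03 over all genes). Spry4 was at 2.17 and 1.07 in 2i+LIF, 0.610 and 0.293 in 2i, 0.547 and 0.674 in LIF+PD, and 37.5 and 40.7 in CH+LIF (log2 fold change 3.97, limma adjusted p = 0.000234). Dusp6, the ERK phosphatase, rose from 5.64 and 4.58 to 26.5 and 32.3 (2.31, adjusted p = 0.00192), and Spry1 and Spred1 rose by 1.503 and 1.09.

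**Figure D4:**
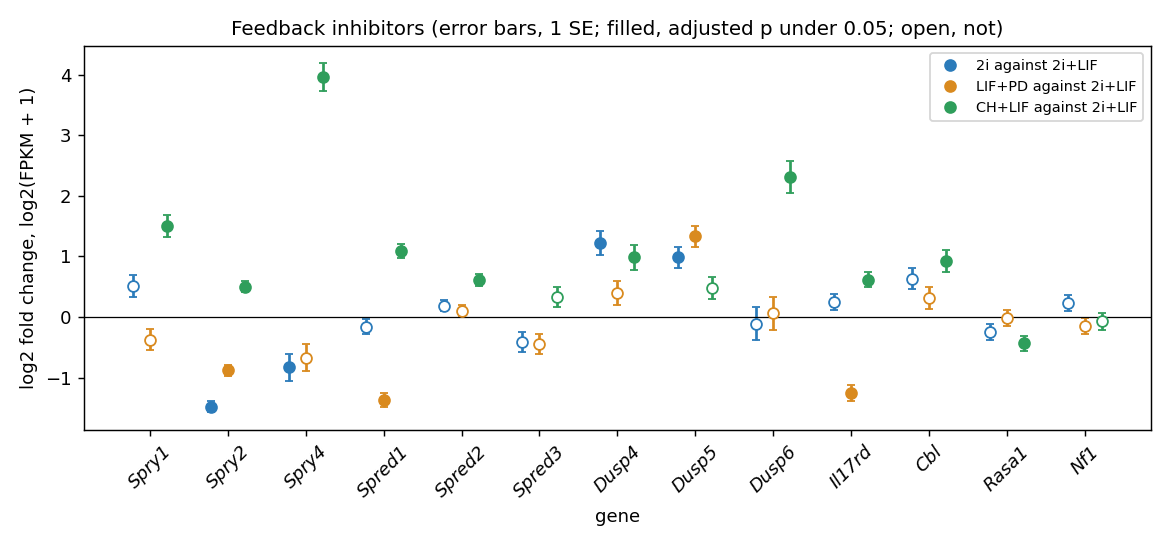
Log2 fold change of log2(FPKM + 1) against 2i+LIF (vertical axis, error bars 1 SE) for 13 feedback inhibitors in 2i, LIF+PD and CH+LIF. Filled points passed an adjusted p of 0.05, and 9 genes rose in CH+LIF, led by Spry4 (3.97) and Dusp6 (2.31).

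Of 16 transcription factor genes that respond to ERK, 12 were tested, of which 5 rose and 1 fell in CH+LIF, 3 rose and 1 fell in LIF+PD, and 1 rose and 3 fell in 2i. The medians were 0.28, -0.02 and -0.33, compared with 0.01, 0.03 and 0.04 over all genes. Over all tested genes 12.2% were higher and 13.3% lower in CH+LIF, 14.8% and 10.4% in LIF+PD, and 9.77% and 8.86% in 2i. Egr1 (named after its values had been seen), among the 5 that rose, passed the filter through the CH+LIF cultures alone (1.05 and 1.15). Its call there is therefore a description. Etv4 was at 53.0 and 43.0 in 2i+LIF, 8.84 and 2.06 in 2i, 12.1 and 10.1 in LIF+PD, and 184 and 188 in CH+LIF, so that it fell in 2i and LIF+PD and rose in CH+LIF (log2 fold change 1.94, limma adjusted p = 0.0234). Myc rose from 8.61 and 5.31 in 2i+LIF to 45.9 and 45.6 in CH+LIF (log2 fold change 2.59, limma adjusted p = 0.00235), and Elk3 rose by 1.03. Junb rose by 0.82 in CH+LIF and by 0.95 in LIF+PD and fell in 2i, with an FPKM of 7.70 and 11.1 in 2i+LIF, 1.20 and 0.789 in 2i, 19.1 and 18.5 in LIF+PD, and 13.9 and 20.9 in CH+LIF. Of 10 regulators associated with Fgf4 or Fgf5, all were tested, and 1 rose and 3 fell in CH+LIF, 4 rose and 1 fell in LIF+PD, and 3 rose and 2 fell in 2i. The median log2 fold changes were -0.01, 0.21 and -0.11. Pou3f1, named after its values had been seen, was among those that rose in LIF+PD. It passed the filter through LIF+PD (3.52 and 3.58) and replicate 2 of CH+LIF (1.80), so its call is a description. Sox2, whose product binds the Fgf4 enhancer, and the naïve factor Nanog fell in CH+LIF by 0.48 and 0.80 on the log2 scale (limma adjusted p = 0.023 and 0.00366), and Tcf7l1 fell by 1.55 (0.000364). Pou5f1, the other factor of the Fgf4 enhancer, differed by 0.07 and did not pass. Otx2, named after its values had been seen, was at 2.44 and 1.80 in 2i+LIF, 13.2 and 16.4 in 2i, 50.3 and 49.2 in LIF+PD, and 2.15 and 2.11 in CH+LIF.

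The relative depth of the cultures, set to 1 in replicate 1 of 2i+LIF and estimated from weakly expressed genes, lay between 0.5 in replicate 1 of 2i and 1.18. All 8 naïve ESC markers were at 1 or above in every condition, with summed levels between 2983 and 3986. Of the 7 primitive endoderm markers, 2 (Gata4 and Dab2, named after their values had been seen) reached 1 in both LIF+PD cultures and 0 in both cultures of the other conditions. Gata4 was near this limit elsewhere, at 0.725 to 1.41 compared with 1.93 and 1.83 in LIF+PD. The summed level of the 7 markers was 3.76 and 5.27 in LIF+PD and between 1.87 and 2.94 elsewhere, where the conditions overlapped. Sox17 and Gata6 stayed below 0.23 in every culture. The summed level of 6 trophectoderm markers was 20.1 and 25.2 in LIF+PD, 35.7 and 43.7 in 2i, 29.0 and 24.5 in 2i+LIF, and 8.50 and 8.48 in CH+LIF. Its members differed, as Gata3 and Ascl2 were higher in LIF+PD than in 2i+LIF and Cdx2 and Tfap2a lower. These were named after their values had been seen. Gata3 was at 2.10 and 0.462 in 2i+LIF and 14.4 and 18.4 in LIF+PD. Cdx2 was at 10.2 and 7.91 in 2i+LIF and 0.0433 and 0.096 in LIF+PD. Elf5 and Hand1 stayed below 1. The summed level of 6 formative epiblast markers was lowest in 2i+LIF, at 66.4 and 59.3, and lay between 105 and 131 elsewhere. For 7 primitive streak markers it was between 47.3 and 93.0. Of these, named after their values had been seen, T, Eomes and Evx1 were higher in CH+LIF than in 2i+LIF, and Nodal and Gsc lower. T was at 4.86 and 3.64 in 2i+LIF, 15.4 and 8.24 in 2i, 0.161 and 0.210 in LIF+PD, and 36.3 and 18.5 in CH+LIF. Nodal was at 39.9 and 35.3 in 2i+LIF and 14.7 and 18.0 in CH+LIF. Mixl1 and Wnt3 stayed below 1. For 4 neural precursor markers the summed level was between 3.26 and 19.7 with the highest values in LIF+PD. For 5 fibroblast markers it was between 0.270 and 17.1 with the highest value in replicate 2 of CH+LIF. The part of such cells in the FGF values was not tested.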

How the data were processed

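RNA was sequenced from 8 cultures of RGd2 ESCs, 2 per condition. The libraries are described as polyA RNA in the labels and as rRNA-depleted in the methods. Per the labels, reads were processed with TopHat2, Cufflinks and Cuffdiff on mm10, and the annotation was Ensembl 75. For every gene in each culture an FPKM was deposited by the authors, flanked by 2 bounds. In 777 to 1409 entries per culture the upper bound lay below the value, and the bounds were not used here. Entries that repeat an identifier (22) were summed. FPKM carry no read number, so depth is known only relative to other cultures, and no counting intervals are given.

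Genes that reached 1 FPKM in 2 or more cultures were tested with limma 3.58.1 (R 4.3.3, mean-variance trend) on log2(FPKM + 1), in 1 fit of 4 conditions with 4 residual degrees of freedom. P-values were Benjamini-Hochberg adjusted over 12927 genes, with a threshold of 0.05. Fold changes on this scale understate those of low genes, and ratios named as fold are of mean FPKM. An exact permutation test of 2 against 2 cultures cannot go below 0.333 and was not used. On simulated data for a comparison of these groups over 12927 genes, 66% of genes changed by 1 on the log2 scale were recovered and 93% of those changed by 2. The changed genes were drawn from those with a mean log2(FPKM + 1) above 2. These rates therefore do not cover genes as low as Fgf8 and Fgf15, and the share of false calls is not given here.

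The members and gene lists were chosen with earlier results of these data known. From each pathway list up to 4 genes were named, with the largest change in CH+LIF against 2i+LIF, an adjusted p below 0.05, no overlap and a mean FPKM of at least 5 in 1 group. For each tested member the 3 genes with the highest r were named, and for each ligand its nearest neighbours. Some genes named by these rules are not reported here. Alternatives were pseudocounts of 0.1, 0.5 and 5, other filters, scalings, a fit without trend, the compared groups alone, a replicate block, and leaving out each culture. Deviations from the condition mean were compared between cultures of the same number and had r from -0.03 to 0.09 across genes. A low r cannot exclude a shared origin of cultures with the same number, so whether the numbers pair them is not known. Promoters came from RefSeq and exons from GENCODE M21. Figures were drawn with matplotlib.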

Additional observations from a re-analysis of the deposited data

How the results depend on the processing

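Of 36 differences (6 genes in 6 comparisons), 22 passed the threshold, and 16 of these passed under all 20 alternatives. Of the 14 that did not pass, 9 passed under none. No called difference changed direction, and 3 that were not called changed sign under some setting. The number of FGF genes past the threshold between 2i and 2i+LIF fell from 3 to 1 (Fgf4) with the 2 groups alone, where 1500 of all genes passed in place of 2408, and 1808 in place of 3089 passed between CH+LIF and 2i. Without a single culture, the number of FGF genes was 1 to 3 (2i against 2i+LIF), 3 to 4 (LIF+PD against 2i+LIF), 3 to 3 (CH+LIF against 2i+LIF), 3 to 4 (CH+LIF against 2i), 3 to 5 (CH+LIF against LIF+PD) and 3 to 5 (LIF+PD against 2i). The number of all genes was then 1167 to 2141, 1687 to 3342, 1520 to 3330, 1494 to 2705, 2311 to 3991 and 1970 to 2966, in the same order. Fewer cultures and residual degrees of freedom entered these fits. Rescaling to TPM lowered the number of FGF genes with both CH+LIF cultures outside the others from 5 to 3 and moved the median log2 fold change of all genes from 0.01 to 0.19 in CH+LIF and from 0.03 to 0.16 in LIF+PD against 2i+LIF. With that rescaling the log2 fold change of Fgf4 in CH+LIF against 2i+LIF was -0.62, compared with -0.82 in the main fit. Neither value is taken relative to the median of all genes. With a replicate block the paired fit called 3, 4, 3, 4, 4 and 5 FGF genes in the order above, and the added call was that of Fgf15 between LIF+PD and 2i. Leaving out a culture leaves 1 in its condition, which was then assumed to vary like the others. FPKM without read numbers limit what can be said of Fgf5, Fgfr3 and Fgfr4.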
